A study of Mus musculus with 6 samples.

Results

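The 10 genes described here encode the MHC class I heavy chains H2-K1, H2-D1, H2-Q4, H2-Q6, H2-Q7, H2-T22, H2-T23 and H2-M3, the class I light chain B2m and the class I transactivator Nlrc5. They were chosen by name, with earlier results of these data known, and make up 10 of the 55357 genes listed for these cultures. RNA-seq compared 3 cultures of mouse cortical astrocytes that carried a CMV promoter plasmid for FLAG-tagged BRAF KE (K499E) (KE) with 3 cultures that received no plasmid (NT). All cultures were prepared from cortices of C57BL/6 embryos at embryonic day 18, and KE cultures were harvested 48 hours after transfection. No culture that received an empty plasmid or BRAF WT was analysed here, so the plasmid, the transfection and BRAF KE cannot be told apart. The labels number the cultures 1 to 3 in each group without saying that they came from separate preparations, so the p-values measure the spread between these samples, which may be technical.

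A class I molecule is a heavy chain that holds a short peptide and pairs with beta-2 microglobulin, the product of B2m, at the cell surface. The classical heavy chains H2-K1 and H2-D1 present peptides of the cell's own proteins to CD8 T cells, and the nonclassical Q, T and M heavy chains have narrower roles. Interferon signalling raises the transcription of these genes through IRF proteins and their partners, which bind short elements near their start sites. NLRC5 has no DNA-binding domain that reads these promoters on its own and is brought to them by the RFX, CREB/ATF and NF-Y factors already bound at a stretch called the SXY module. Resting neural cells hold little class I protein compared with immune cells, and its rise is a known feature of inflammatory states of glia.

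Promoter sequences are shown because members with neighbouring promoters differed in how far they moved. The RefSeq promoter table (GRCm38.p6) holds a start site for 9 of the 10 members, and the 250 bases before each start were located in GRCm39 by exact match. The windows of H2-Q6 and H2-Q7 matched at 2 places in GRCm39 and the other 7 at 1. The start sites of H2-K1 and H2-Q7 in this table lie at the edge of the gene as Gencode draws it, and those of the other 7 lie inside it. The start of H2-T23 lies furthest inside. The windows of H2-T23 and H2-D1 fall wholly within the gene, so their motifs may not describe the sequence before the Gencode start. The first lines give 30 bases around the interferon-type element of each of the 9, from 5' to 3' on the strand of the gene, with the element in capitals. The element is TTTCACTT in 7 genes and TTTCNNTTT in H2-T23 and B2m, where it lies on the opposite strand in B2m.
H2-K1: catctccacagTTTCACTTctgcacctaac
H2-D1: catctcctcagTTTCACTTctgcacctaac
H2-Q4: catctccccagTTTCACTTctgctcctaac
H2-Q6: catctccccagTTTCACTTctgctcctaac
H2-Q7: catctccccagTTTCACTTctgctcctaac
H2-T22: aattggcttagTTTCACTTtcgaatcccca
H2-M3: ttcctctgaggTTTCACTTctctgtaactc
H2-T23: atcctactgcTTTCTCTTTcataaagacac
B2m: taagaacatgAAACTGAAAatgggaaagtc

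The same 30 bases stood before H2-Q4, H2-Q6 and H2-Q7. These 3 genes differed in log2FC and no pair of them overlapped in its log ratio, but the split of H2-Q6 from H2-Q7 is uncertain. The part of these sequences in the differences was not tested. The element began 90 bases before the start in H2-K1, 150 in H2-D1, 153 in H2-Q4, 152 in H2-Q6, 113 in H2-Q7, 191 in H2-T22 and 101 in H2-M3. On both strands of 32851 promoter windows of 250 bases, TTTCACTT was found in 1.36% and in 7 of the 9 members, a motif that was chosen after these sequences had been read and that is contained in the next. The looser TTTCNNTT was found in 21.3% of windows and in 9 of 9 members, and the longer TTTCNNTTT in 9.37% of windows and in 3 members, H2-T22, H2-T23 and B2m. These 3 motifs overlap one another and are not separate evidence. GGGATTCCC, a spelling of the kappa B element, was found in 0.301% of windows and in 4 members, H2-K1, H2-D1, H2-Q6 and H2-Q7. Other spellings of it were not searched, so the remaining members may hold a variant. H2-Q4, for example, reads gggatttccc shortly before its TTTCACTT. TGATGAC, a spelling of the CREB-type element of the SXY module, was found in 2.69% of windows and in 6 members, H2-D1, H2-Q4, H2-Q6, H2-Q7, H2-T22 and H2-M3. Variants were not searched, and H2-K1 reads tgttgac at the matching place. CCAAT, the element read by NF-Y, was found in 33.8% of windows and in 9 of 9 members. H2-K1 and H2-T22 are shown in full, the former with and the latter without GGGATTCCC, with every match to these motifs on either strand in capitals. The H2-K1 window lies on the minus strand at chr17:34219322-34219571 and the H2-T22 window on the minus strand at chr17:36353635-36353884 (GRCm39).
H2-K1: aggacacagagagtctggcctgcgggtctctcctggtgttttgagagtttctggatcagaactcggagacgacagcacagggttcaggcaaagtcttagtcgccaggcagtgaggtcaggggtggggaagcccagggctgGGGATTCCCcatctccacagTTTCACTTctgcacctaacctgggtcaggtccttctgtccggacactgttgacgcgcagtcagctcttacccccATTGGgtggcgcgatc
H2-T22: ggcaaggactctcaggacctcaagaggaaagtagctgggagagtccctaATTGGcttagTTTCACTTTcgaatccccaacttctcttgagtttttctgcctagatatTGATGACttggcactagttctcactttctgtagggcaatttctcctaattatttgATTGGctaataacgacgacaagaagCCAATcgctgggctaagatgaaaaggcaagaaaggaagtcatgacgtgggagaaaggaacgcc

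A match of letters is a description of the sequence and not evidence that a factor was bound. Values below are normalized counts, gene counts divided by the size factor of their culture, and were compared with limma on log2(normalized count + 1). A log2FC on this scale is KE minus NT and understates the change of low genes. DEGs were genes with a Benjamini-Hochberg adjusted p-value under 0.05 over the 15280 genes tested, those that averaged at least 10 across all 6 cultures. All 10 members passed that minimum in both groups. Approximate depth was 24500000 reads in KE replicate 2, the lowest, and up to 34100000 in the others. Braf, the transfected gene, was at 35025, 34933 and 40978 in KE against 925, 811 and 946 in NT. All 10 astrocyte markers, which include Gfap and Aldh1l1, were detected, with S100b low at 11.8 to 31.5 in the 6 cultures.

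All 10 members were higher in KE than in NT, and in each of the 10 the lowest KE culture was above the highest NT culture. Of all tested genes 51.3% were called in either direction, 25.3% higher and 26% lower. The groups did not overlap in 59.9%, with every KE culture above every NT culture in 30.1%, so a call by itself was common in these data. The members rose further than most tested genes, since 10 of 10 had a log2FC of at least 1 and 4.74% of all tested genes were called higher by that much. The median log2FC was 1.78 over the members, from 1.21 in B2m to 3.28 in H2-T23, and 0.002 over all tested genes. Together the 10 genes took 0.702%, 0.788% and 0.714% of all normalized counts in KE against 0.25%, 0.256% and 0.213% in NT. In bulk samples a changed number of cells of a type and a changed amount of RNA per cell cannot be told apart.

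**Figure D1:**
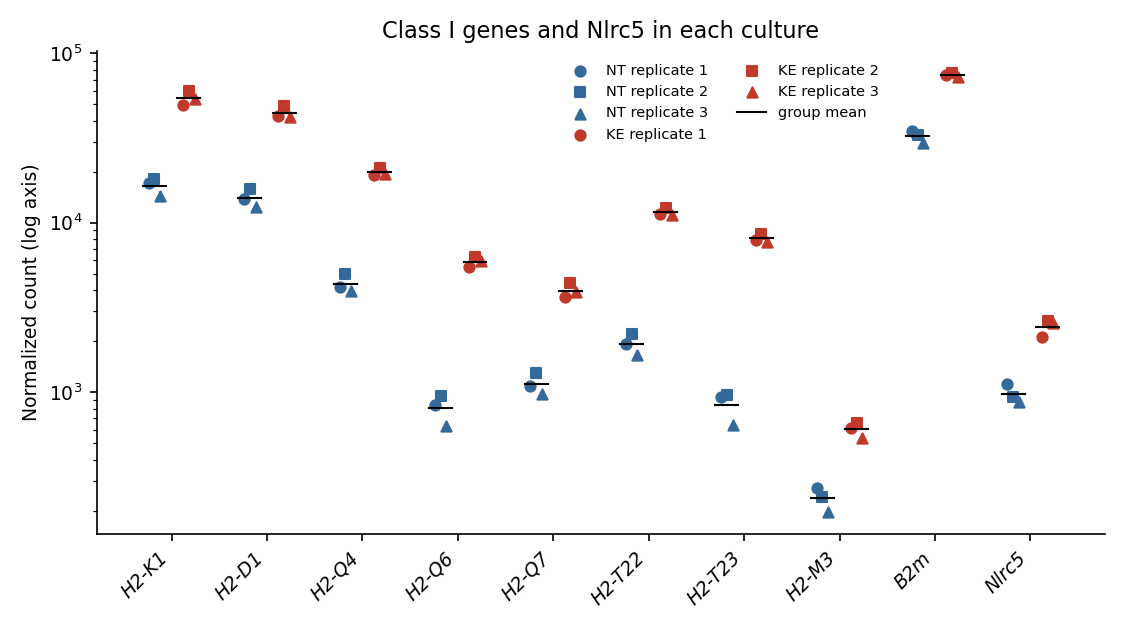
Normalized counts (log axis) of the 10 members in the 3 NT cultures (blue) and the 3 KE cultures (red), with 1 point per culture and a line at each group mean. The groups do not overlap in any of the 10 genes, and the ratio of the group means is largest in H2-T23 (9.59) and smallest in B2m (2.3).

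H2-K1 (ENSMUSG00000061232, minus strand, chr17:34214987-34219321, 8 exons) encodes the classical K heavy chain. Its normalized counts were 49825, 59547 and 53516 in KE and 17194, 18119 and 14288 in NT, or 54296 ± 4908 against 16533 ± 1999 (SD, n = 3 each). H2-K1 rose by a log2FC of 1.72 (standard error 0.09, 95% interval 1.51 to 1.93, limma adjusted p = 1.2e-07). The lowest KE culture was therefore above every NT culture by a wide margin. H2-D1 (ENSMUSG00000073411, plus strand, chr17:35481691-35486475) encodes the classical D heavy chain. Its normalized counts were 42373, 48849 and 41918 in KE and 13821, 15761 and 12335 in NT, or 44380.1 ± 3877 against 13972 ± 1718. H2-D1 rose by 1.67 (standard error 0.09, limma adjusted p = 1.2e-07). The classical pair kept close to one another in every culture. The ratio of H2-K1 to H2-D1 was 1.18, 1.22 and 1.28 in KE and 1.24, 1.15 and 1.16 in NT, ranges that overlap (log2 difference 0.05, exact permutation p = 0.4).

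The Q region holds several similar heavy chain genes, and the 3 members from it moved by different amounts. H2-Q4 (ENSMUSG00000035929, plus strand, chr17:35598586-35604274) was at 19046, 21135 and 19348 in KE and at 4188, 5009 and 3934 in NT. Its means were 19843 ± 1129 and 4377 ± 562, a log2FC of 2.19 (standard error 0.08, limma adjusted p = 1.4e-08). H2-Q6 and H2-Q7 belong to the genes that encode Qa-2, a heavy chain that can be tethered to the membrane by a lipid anchor. H2-Q6 (ENSMUSG00000073409, plus strand, chr17:35643777-35655332) was at 5461, 6301 and 5950.1 in KE and at 839, 952 and 634 in NT, a log2FC of 2.89 (standard error 0.12, limma adjusted p = 2.3e-08). H2-Q7 (ENSMUSG00000060550, plus strand, chr17:35658131-35662749) was at 3631, 4409 and 3883 in KE and at 1088, 1302 and 970 in NT, a log2FC of 1.83 (standard error 0.10, limma adjusted p = 1.6e-07). These neighbours exchanged order between the groups. The ratio of H2-Q6 to H2-Q7 was 1.5, 1.43 and 1.53 in KE and 0.771, 0.731 and 0.653 in NT, with no overlap (log2 difference 1.05, exact permutation p = 0.1, the smallest that 3 against 3 cultures allow). Reads that fit both genes are divided between them by the counting, so the split of H2-Q6 from H2-Q7 is uncertain. The sum of both genes, which does not depend on how reads are divided between them, was 9879 ± 809.7 in KE and 1928 ± 325 in NT, 5.16-fold higher in KE.

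The members that moved furthest included the T region genes. H2-T23 (ENSMUSG00000067212, minus strand, chr17:36340229-36345571) encodes Qa-1, which presents leader peptides of other class I chains to NKG2A receptors of NK cells. It was at 7914, 8616 and 7735 in KE and at 932, 957 and 640.4 in NT, or 8088 ± 466 against 843 ± 176. H2-T23 rose by 3.28 (standard error 0.13, 95% interval 3.0 to 3.56, limma adjusted p = 1.5e-08), a mean ratio of 9.59 and the 56th largest log2FC of the 15280 tested genes. H2-T22 (ENSMUSG00000056116, minus strand, chr17:36348020-36353650) encodes a heavy chain that holds no peptide and is recognised by some gamma delta T cells. It was at 11299, 12255 and 11143 in KE and at 1931, 2199.9 and 1653 in NT, or 11566 ± 602 against 1928 ± 274. H2-T22 rose by 2.59 (standard error 0.09, limma adjusted p = 8.1e-09), a mean ratio of 6.0. At the far end of the complex, H2-M3 (ENSMUSG00000016206, plus strand, chr17:37581106-37585384) encodes a heavy chain that presents peptides starting with N-formyl methionine. H2-M3 was the lowest member at 615, 659 and 536 in KE and 271, 241 and 196 in NT, a log2FC of 1.36 (standard error 0.13, limma adjusted p = 8.4e-06).

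B2m (ENSMUSG00000060802, plus strand, chr2:121977957-121983594, 4 exons) encodes the light chain that every heavy chain above needs for stable display. It was at 74765, 76813 and 72272 in KE and at 34651, 32960.4 and 29521 in NT, or 74617 ± 2274 against 32378 ± 2614. B2m rose by 1.21 (standard error 0.07, 95% interval 1.05 to 1.36, limma adjusted p = 2e-07), the smallest log2FC of the 10. Nlrc5 (ENSMUSG00000074151, plus strand, chr8:95160984-95253900, 53 exons) encodes the transactivator. It was at 2107, 2639.7 and 2564 in KE and at 1124, 941 and 877 in NT, or 2437 ± 288 against 981 ± 128. Nlrc5 rose by 1.31 (standard error 0.11, 95% interval 1.08 to 1.55, limma adjusted p = 2.2e-06). The ratio of B2m to Nlrc5 was 30.9 ± 3.98 in KE and 33.2 ± 2.13 in NT, ranges that overlap (log2 difference -0.11, exact permutation p = 0.4).

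From the largest log2FC to the smallest the order was H2-T23, H2-Q6, H2-T22, H2-Q4, H2-Q7, H2-K1, H2-D1, H2-M3, Nlrc5 and B2m. Neighbours in this order were compared by the log ratio of both genes in each culture. In 3 of the 9 neighbouring pairs these ratios overlapped between KE and NT, namely H2-K1 with H2-D1, H2-M3 with Nlrc5 and Nlrc5 with B2m. Over all 45 pairs the ratios overlapped in 5, the other 2 being H2-D1 with Nlrc5 and H2-M3 with B2m. The smallest exact permutation p for a pair is 0.1, so no pair could pass 0.05 and none was adjusted further. Per kilobase of the canonical Gencode transcript, the level was highest in B2m, at 68708 in KE and 29814 in NT, and lowest in Nlrc5, at 322 in KE and 129 in NT. Among the heavy chains the level per kilobase in KE ran from 33537 in H2-K1 and 20964 in H2-D1 through 11024 in H2-Q4, 6376 in H2-T22 and 5495 in H2-T23 to 418 in H2-M3. In NT, H2-T23 stood at 573 per kilobase, below H2-Q7 at 748, and in KE it stood above H2-Q7 at 2655.

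Summed over the 8 heavy chain genes, normalized counts were 140165, 161772 and 144028 in KE and 40263, 44541 and 34649 in NT. The sum was 148655 ± 11523 against 39817 ± 4961, 3.75-fold higher in KE (log2 difference 1.91, exact permutation p = 0.1, the smallest possible). The sum of the classical pair rose less than the sum of the rest, at 98676 ± 8572 against 30506 ± 3656 (3.24-fold) where the other 6 heavy chains summed to 49979 ± 2958 against 9312 ± 1318 (5.4-fold). H2-K1 and H2-D1 made up 65.8%, 67.0% and 66.3% of the heavy chain sum in KE and 77.0%, 76.1% and 76.8% in NT, with no overlap. The shares of H2-T23 (5.45% against 2.1%), H2-T22 (7.79% against 4.84%), H2-Q6 (3.97% against 2.02%) and H2-Q4 (13.6%, 13.1% and 13.4% against 10.4%, 11.2% and 11.4%) were higher in KE without overlap. The share of H2-M3 was lower in KE without overlap (0.406% against 0.593%), and H2-M3 also had a smaller log2FC than either classical gene. The share of H2-Q7 overlapped between the groups at 2.67% ± 0.0707 and 2.81% ± 0.11 (exact permutation p = 0.2, n = 3 each). Since these shares add up to 100%, they are not independent of one another, and longer transcripts weigh more in them. Heavy chain and light chain transcripts did not move by the same factor. The heavy chain sum over B2m was 1.87, 2.11 and 1.99 in KE and 1.16, 1.35 and 1.17 in NT, 1.62-fold higher in KE with no overlap (log2 difference 0.70, exact permutation p = 0.1).

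**Figure D2:**
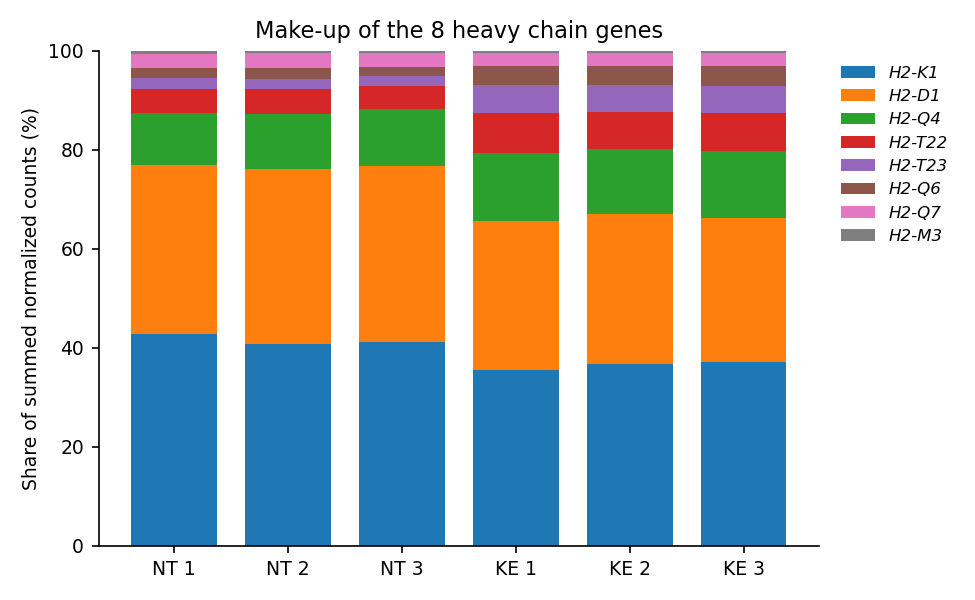
Share of each heavy chain gene (%) in the summed normalized counts of the 8 heavy chain genes, with 1 bar per culture. H2-K1 and H2-D1 together fill 76.1% to 77.0% of each NT bar and 65.8% to 67.0% of each KE bar.

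Within the groups the members shared the highest KE culture and the lowest NT culture, but not the full order of the cultures. In KE the coefficient of variation ran from 3.05% in B2m to 11.8% in Nlrc5, and in NT from 8.07% in B2m to 20.9% in H2-T23. KE replicate 2 was the highest KE culture in 10 of 10 members, 1.04-fold (B2m) to 1.17-fold (H2-Q7) above the mean of the other KE cultures. NT replicate 3 was the lowest NT culture in 10 of 10 members, at 0.678 (H2-T23) to 0.873 (B2m) of the mean of the other NT cultures. NT replicate 2 was the highest NT culture in 7 of 10 members, and NT replicate 1 in H2-M3, B2m and Nlrc5. The lowest KE culture also differed between members, such as KE replicate 1 in H2-K1 and KE replicate 3 in H2-D1. Over all tested genes 38.0% had KE replicate 2 highest, 32.0% had NT replicate 3 lowest and 13.1% had both. KE replicate 2 was also the KE culture with the fewest reads and the most microglia and macrophage marker RNA, and NT replicate 3 the NT culture with the least of it. The part of either in this pattern was not tested. Without KE replicate 2 or without NT replicate 3, as without any other single culture, 10 of 10 members were still called higher.

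Heavy chain transcripts resemble one another, which limits how well reads can be assigned. Of the stretches of 75 bases in the transcript of B2m, Nlrc5 and H2-M3, 0% occurred in another gene's transcript. The share was 1.6% in H2-K1, 6.9% in H2-D1, 8.5% in H2-Q4, 14.6% in H2-T23, 18.3% in H2-Q6, 25.7% in H2-T22 and 27.5% in H2-Q7. H2-T22 shared 19.9% of its stretches with H2-T10, and H2-Q7 shared 13.8% with H2-Q6. The log2FC of the T and Q genes are thus less certain as values of single genes than those of H2-K1, B2m, H2-M3 and Nlrc5. The rise of the heavy chain sum was little different without H2-Q6 and H2-Q7, at 3.67-fold.

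Of 28 other class I genes of the H2 complex on a fixed list, 15 are named in the table, 6 of these were at 0 in all 6 cultures and 5 passed the minimum. Of these 5, 3 rose, 0 fell and 2 were not called, beside 25.3% higher and 26% lower over all tested genes. Of those that rose, H2-K2 and H2-Q10 averaged 9.0 and 8.81 in NT and passed the minimum of 10 only through KE, the group where they are high. H2-M2, which was not called, averaged 8.17 in KE and passed only through NT. The count that rose therefore depends in part on the minimum and is a description only. H2-K2 was at 129, 131 and 131 in KE and averaged 9.0 ± 4.69 in NT (log2FC 3.85, standard error 0.36, limma adjusted p = 6.2e-06). H2-T10, the gene most like H2-T22 in sequence, was at 323, 399 and 376 in KE and 93, 89.4 and 87.1 in NT (log2FC 2.01, limma adjusted p = 3.2e-07). H2-Q10, which encodes a secreted heavy chain, rose by 1.21 from a low level (limma adjusted p = 0.026). H2-T24 had a log2FC of 0.63 (limma adjusted p = 0.078) and H2-M2 of -0.89 (limma adjusted p = 0.087). H2-Q5, chosen after its values were seen, was at 357, 419 and 452 in KE and 75, 79.4 and 47 in NT (log2FC 2.62, limma adjusted p = 1.1e-06). These genes together added little RNA, since the heavy chain sum with the 15 listed genes was 149283 ± 11573 in KE and 40013 ± 4982 in NT.

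Of 9 tested class I-like genes outside the H2 complex, 3 rose, 3 fell and 3 were not called, with a median log2FC of -0.18, close to the 25.3% called higher and 26% called lower over all tested genes. Those that rose were Procr, the endothelial protein C receptor (1.30), Hfe, a regulator of iron uptake (0.58), and Mr1, which presents vitamin B metabolites (0.57). Those that fell were Ulbp1 (-2.13), Raet1e (-0.56) and Raet1d (-0.38), which encode ligands of the NKG2D receptor. H60b, which encodes another such ligand, was not called (-0.18, limma adjusted p = 0.3). The gene model of Raet1e overlaps those of Raet1d and H60b, so their values are uncertain. Cd1d1, which presents lipids, had a log2FC of -0.31 and Fcgrt, the neonatal Fc receptor, of 0.10, and neither was called.

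Peptides reach class I heavy chains through the immunoproteasome, the TAP transporter and a loading complex in the endoplasmic reticulum. Of 13 genes of these steps 10 rose, 1 fell and 2 were not called, where 25.3% of all tested genes were called higher and 26% lower. Their median log2FC was 1.32 against 0.002 over all tested genes. The inducible proteasome subunits Psmb9, Psmb8 and Psmb10 rose by 1.79, 1.65 and 1.41. Tap1, a subunit of the transporter, was at 6370.4, 7432 and 6713 in KE and 1931, 2373 and 1823 in NT, a log2FC of 1.75 (standard error 0.09, limma adjusted p = 1.1e-07). Tap2, Tapbp (tapasin) and Tapbpl rose by 1.5, 1.47 and 1.32. The trimming peptidase Erap1 rose by 0.98, and the proteasome activators Psme1 and Psme2 by 1.05 and 0.73. The general chaperones of the endoplasmic reticulum moved little. Calr fell by 0.16 (limma adjusted p = 0.033), and Canx and Pdia3 had log2FC of -0.11 and 0.07 and were not called. The heavy chain sum over Tap1 was 21.7 ± 0.274 in KE and 19.5 ± 1.14 in NT, without overlap (log2 difference 0.16, exact permutation p = 0.1, n = 3 each).

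**Figure D3:**
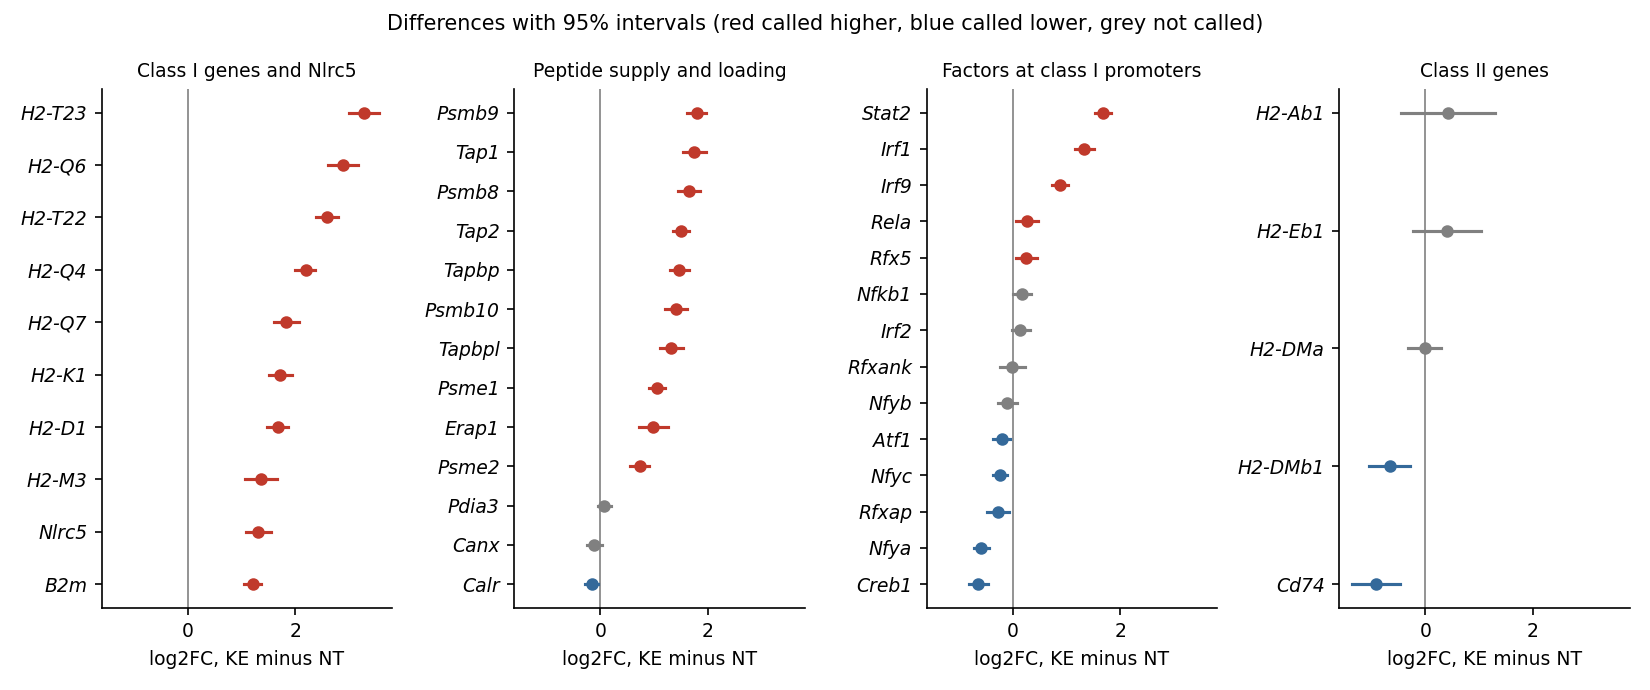
log2FC (KE minus NT) with 95% intervals for the tested genes of the class I set, the peptide supply and loading list, the factors at class I promoters and the class II list. Every interval of the class I set lies above 1, and the factor list runs from Creb1 at -0.64 to Stat2 at 1.68.

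Of 14 factors known to act at class I promoters, 5 rose, 5 fell and 4 were not called, with a median log2FC of 0.07, where 25.3% of all tested genes were called higher and 26% lower. Without KE replicate 2, KE replicate 3 or NT replicate 1, the number that rose was 3 in each case. The largest log2FC among them were those of Stat2, Irf1 and Irf9, which act in interferon signalling. Stat2 was at 6883, 7632 and 7513 in KE and 2345, 2439 and 2100.3 in NT (log2FC 1.68, limma adjusted p = 2e-08), and Irf1 and Irf9 rose by 1.33 and 0.87. Irf2, which can repress the same elements, had a log2FC of 0.14 and was not called. Of the NF-kappa B subunits, Rela rose by 0.26 (limma adjusted p = 0.042) and Nfkb1 was not called at 0.17. The partners of NLRC5 at the SXY module did not rise as a group. Rfx5 rose by 0.25 (limma adjusted p = 0.039), Rfxap fell by 0.28 and Rfxank was not called at -0.01. Creb1, Nfya, Nfyc and Atf1 fell by 0.64, 0.59, 0.23 and 0.21, and Nfyb was not called at -0.10.

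Class II molecules present peptides taken up from outside the cell and are switched on by Ciita, a relative of Nlrc5. Of 7 class II genes 5 passed the minimum, of which 0 rose, 2 fell and 3 were not called, with a median log2FC of -0.01. Over all tested genes 25.3% were called higher and 26% lower, so these few genes are not set apart by their calls. Cd74, the class II invariant chain, fell by 0.91 (limma adjusted p = 0.0029) and H2-DMb1, a class II peptide exchange subunit, by 0.66 (limma adjusted p = 0.0072). Ciita was below the minimum at 6.07, 5.99 and 12.3 in KE and 15.2, 3.97 and 7.31 in NT, with overlap. The level of class II RNA was low in both groups, with a sum of 306 to 339.6 in KE and 394 to 439 in NT over the 7 genes. Of a list of class I receptors and related genes, 3 passed the minimum and all 3 fell. The paired receptor genes Pirb and Pira2 fell by 3.59 and 2.91. Lilrb4a, a related receptor gene of myeloid cells, fell by 3.91. Klrk1, Klrc1 and Cd8a, genes of NK and T cells, were listed at 0 in all 6 cultures.

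Markers of the cell types that the cultures could hold were read in the same way, against 25.3% of all tested genes called higher and 26% called lower. All 15 of 15 microglia and macrophage markers fell, with log2FC from -4.12 in Fcrls to -0.88 in P2ry12 and a median of -3.31. Their summed level was 5553, 7683 and 5575 in KE and 55159, 54020.3 and 46717 in NT, so between the groups the class I genes were higher where microglial RNA was lower. Within the groups the marker sum and the heavy chain sum mostly ran in the same direction, and the KE cultures stood in the same order in both. KE replicate 2 had the highest of both in KE and NT replicate 3 the lowest of both in NT. NT replicate 2 had a lower marker sum than NT replicate 1 but a higher heavy chain sum, at 44541 against 40263. Of 10 astrocyte markers 7 rose and 1 fell, and their sum was 194523 to 200354 in KE and 142105 to 150693 in NT. Gfap rose by 0.87 and Gja1 fell by 0.46. All 7 tested oligodendrocyte lineage markers fell, with a median of -0.55 and sums of 27105 to 31875 in KE and 35920.5 to 36217 in NT. Of 6 neuron markers 2 rose and 2 fell, with sums of 6477 to 6652 in KE and 8466 to 9171 in NT. Of 7 endothelial and fibroblast markers 2 rose and 2 fell, shares near those over all tested genes, with overlapping sums of 1617 to 1807 in KE and 1530.3 to 1826 in NT. None of the 7 T and NK cell markers passed the minimum, 5 of them were listed at 0 in all cultures, and they summed to 2.95 to 5.98 in KE and 3.89 to 6.48 in NT. The part of these shifts in the class I levels was not tested.

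**Figure D4:**
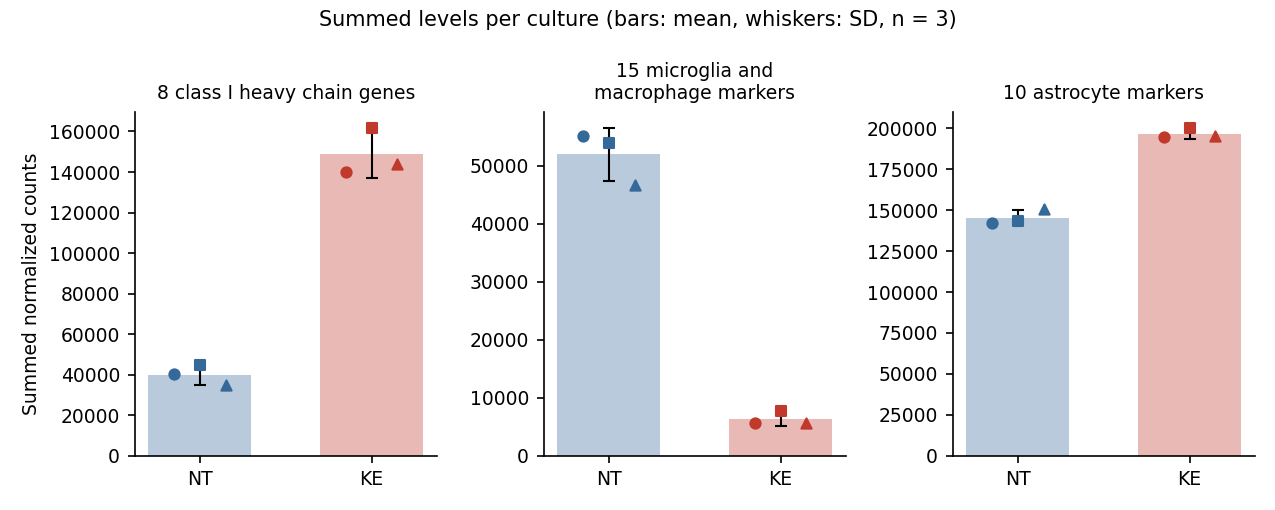
Summed normalized counts of the 8 heavy chain genes, of 15 microglia and macrophage markers and of 10 astrocyte markers, with bars at the mean, whiskers for the SD and 1 point per culture (n = 3). The heavy chain sum is higher in all 3 KE cultures, where the microglia and macrophage sum is lower.

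The heavy chain members lie between H2-K1 and H2-M3 in a stretch of 3370.4 kb on chromosome 17, among genes of many other functions. Of 11 class I genes of the lists that were tested there, 10 rose. H2-Q10, among these 10, averaged 8.81 in NT and passed the minimum only through KE. Of the 96 other tested genes in the stretch 37 (38.5%) rose and 20 fell, with a median log2FC of 0.12 against 1.83 in the 11 class I genes. Over all tested genes 25.3% rose and 26% fell. H2-Q5 was on neither list and is counted among the 96. Leaving out Tap1, Tap2, Psmb8 and Psmb9, 33 of 92 (35.9%) rose, and 12 of these, H2-Q5 included, rose by at least 1. Genes of this stretch that moved far, picked after their values were seen, included the complement genes Cfb (2.04) and C4b (1.22), which rose, and Tnf (-3.60), Aif1 (-3.31) and Lst1 (-3.27), which fell. Aif1 is also on the list of microglia and macrophage markers, all of which fell. Genes that rose far and genes that fell far thus both lay within the stretch.

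**Figure D5:**
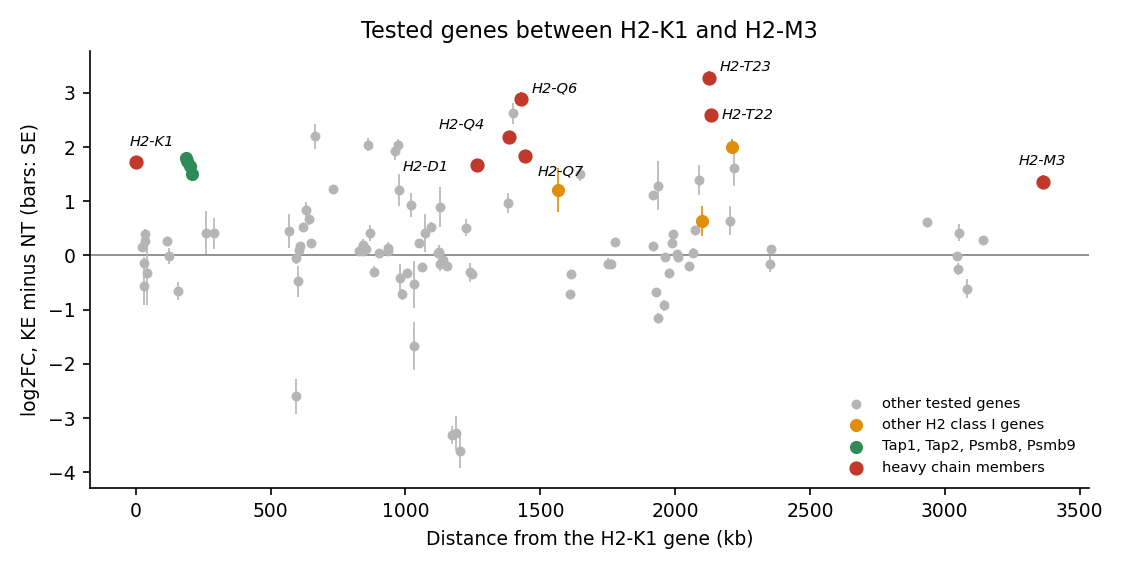
log2FC (KE minus NT, bars show the standard error) of tested genes against their distance in kb from the H2-K1 gene. The 8 heavy chain members lie between 1.36 and 3.28, and most other genes lie near 0.

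For 3 members the genes with the most similar pattern were looked up among 12071 genes with a mean of at least 100. Likeness was the root mean square difference of log2 values over the 6 cultures after each gene was centred on its own mean, and a smaller value is closer. Nearest to H2-K1 were Helz2 (0.0492), an interferon-induced helicase gene, H2-D1 (0.0554) and Stat2 (0.06). Nearest to B2m were Pttg1 (0.0689), H1f2 (0.0713) and Ptgr1 (0.0721). Nearest to Nlrc5 were Acy3 (0.0885), Crispld2 (0.114) and Thbs2 (0.117). With 2 groups of 3 cultures this measure is led by the difference between KE and NT, so it mostly finds genes with a similar log2FC.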

How the data were processed

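mRNA of 6 mouse astrocyte cultures was sequenced with the TruSeq stranded mRNA kit, 3 KE and 3 NT, grouped by the sample labels. The authors deposited a normalized signal per gene and culture: gene counts divided by DESeq2 size factors, which removes sequencing depth. Per the study's methods, reads were trimmed with Trim Galore, aligned with STAR to GRCm39 and quantified with Salmon on Gencode vM28. The submitters' processing notes list GRCh38, although the gene identifiers are mouse. The methods mention batches that the labels do not give, so none was modelled. Whole reads could not be recovered (between 74.7% and 77.6% of low values were within 0.1 of whole reads, short of the 95% needed), so no count test was run. Errors come from the replicate spread of each gene together with the variance trend that limma fits across genes. Approximate depth is each total divided by the most frequent low value.

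From the deposited values, log2(normalized count + 1) of genes with a mean of at least 10 entered limma 3.58.1 (R 4.3.3) with a variance trend and the group as its factor. Tests were two-sided, with Benjamini-Hochberg adjustment over all 15280 tested genes. Sums and ratios were compared by exact permutation over 20 splits of the cultures. The fit was tested on simulated data. Coordinates and transcript lengths came from Gencode vM39 on GRCm39. 1 further factor is not reported here and is left out of the counts of its list. The members and lists were chosen with earlier results of these data known. Named genes are the members, the extremes and described roles of each list, and for H2-K1, B2m and Nlrc5 the 3 genes of most similar pattern. Alternatives were pseudocounts of 0.5 and 5, no minimum or a mean of at least 50, limma without the trend, quantile normalization, 75th percentile scaling, a replicate block, and leaving out each culture.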

Additional observations from a re-analysis of the deposited data

How the results depend on the processing

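Under 14 alternatives all 10 members stayed higher in KE with an adjusted p under 0.05 in limma. Their log2FC ranged from 1.14 to 1.26 in B2m, from 1.24 to 1.42 in Nlrc5, from 1.62 to 1.79 in H2-K1 and from 3.1 to 3.39 in H2-T23, and the largest adjusted p was 0.00092, in H2-M3. Leaving out each culture in turn gave a log2 difference of the heavy chain sum between 1.81 and 1.99 and of the heavy chain to B2m ratio between 0.66 and 0.77. It also gave 3308 to 3540 genes higher and 3484 to 3730 lower in KE, and 4214 were higher with quantile normalization, which moved the median log2FC to 0.029. Of the factors at class I promoters, 3 were called higher in limma without the variance trend, against 5, and 3 to 6 when each culture was left out in turn. The other H2 class I genes called higher numbered 2 to 4, so calls near the threshold depend on the setting in both lists. Cultures with the same replicate number deviated together only weakly across genes (correlations 0.0589, 0.0664 and 0.0651), although each culture correlated best with its own number. The labels do not say whether the numbers pair the cultures, and these weak correlations cannot decide it. The main fit did not pair them. With the replicate block 3967 genes were higher and 4079 lower, and 10 of 10 members were called higher. Depth was lowest in KE replicate 2, which limits the precision of its low genes most.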
